A study of Oryctolagus cuniculus with 6 samples.

Results

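This set of 10 lipid enzymes of the myelin membrane, followed in the injured rabbit facial nerve, holds SPTLC1, SPTLC2, CERS2, ELOVL1, ELOVL6, ELOVL7, FA2H, UGT8, GAL3ST1 and ASPA. They were taken by gene symbol from the count table, which lists 17396 genes, and all 10 were found under these symbols. They share a role in galactolipid, ceramide and long-chain fatty acid metabolism, and the rule uses no counts. All 10 passed the filter on low counts that left 14003 genes for testing.

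Facial nerve RNA was sequenced from 3 rabbits with transection of the facial nerve trunk (FNI group) and from 3 rabbits in which an I-125 seed, a small radioactive source of low-energy γ rays, had also been placed near the cut nerve (FNI+I-125 group). All animals were wild type male Japanese white rabbits of 3 to 4 months, all had a cut nerve, and all nerves were taken on day 14. Transection is therefore shared by both groups, and no uninjured nerve was analysed here. The sources used here do not say which stump was taken or how much neighbouring tissue came with it.

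Myelin is unusually rich in lipid, and its typical lipids are galactosylceramide and its sulfated form, sulfatide. Their synthesis starts with serine palmitoyltransferase, which joins serine to a fatty acid to make the sphingoid base. A ceramide synthase then adds a second fatty acid, which in myelin is often very long and carries a hydroxyl group, and the finished ceramide receives galactose and then sulfate. In peripheral nerve this work is done by Schwann cells, which lower their myelin genes when they lose contact with the axon and raise them again when they wrap regrown axons.

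Total counts ran from 16031151 to 16798012 per library, and values per gene are given as CPM (counts scaled to library size and edgeR's TMM factors). Values after FNI and after FNI+I-125 are listed in the order of replicates 1, 2 and 3. CPM is not divided by gene length, so it is compared here between libraries and not between genes. The 10 markers of myelinating Schwann cells used here were all detected, and their summed level was 1308 to 15730 CPM in the FNI group and 318 to 1248 CPM in the FNI+I-125 group, with the top value in FNI replicate 3. Markers of tissue around the nerve stood at uneven levels. Of the marker genes in the files, 6 for skeletal muscle summed to 3958 and 3357 CPM in FNI+I-125 replicates 1 and 2 and to at most 63.4 CPM elsewhere. For salivary gland, 6 genes summed to 48900 CPM in FNI replicate 2, of which nearly all was DNASE1, and to 63.4 to 3060 CPM elsewhere. For epidermis and sebaceous gland, 8 genes summed to 657 CPM in FNI replicate 1, to 1064 CPM in FNI+I-125 replicate 3 and to at most 92.9 CPM elsewhere. The adipocyte and macrophage lists separated the groups and are given beside the results they are read with. The 8 fibroblast markers overlapped, at 69360 to 138800 CPM against 98880 to 190200 CPM. Their part in the results was not tested, except where a value is given.

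All 10 enzymes had a lower mean in the FNI+I-125 group than in the FNI group, and their median log2 fold change was -1.58, where that of all genes tested was 0.01. The differences were very unequal. The enzymes that make the hydroxylated galactolipids (FA2H, UGT8 and GAL3ST1) were several-fold lower in the FNI+I-125 group without overlap between the groups. ELOVL6 and ELOVL7 were also lower in every FNI+I-125 library, whereas the first enzymes of the pathway (SPTLC1, SPTLC2 and CERS2) lay within a narrow band in all 6 libraries. FNI replicate 3 was the highest library for 10 of 10 enzymes, against 30.0% of all genes tested.

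**Figure D1:**
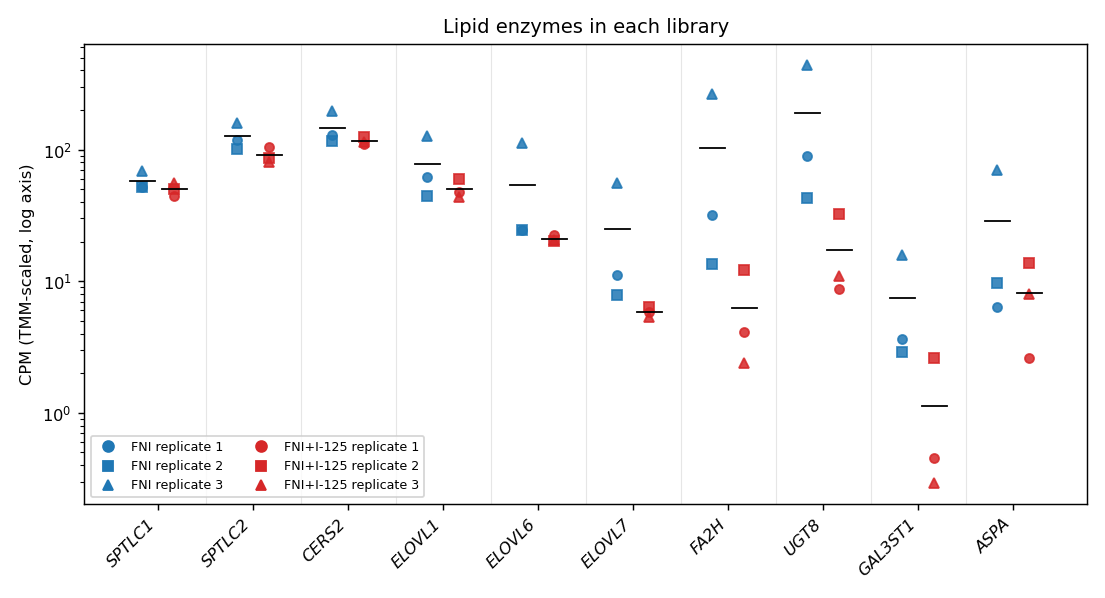
CPM of the 10 lipid enzymes (log axis) in each library, in blue for the FNI group and in red for the FNI+I-125 group, with the marker shape for the replicate and a black bar for the group mean. FNI replicate 3 (blue triangle) is the top point of every gene, and red lies wholly below blue for ELOVL6, ELOVL7, FA2H, UGT8 and GAL3ST1. Heights are not comparable between genes, since CPM is not divided by length.

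The comparison of the groups asks what the seed adds to a transection. The test was edgeR's quasi-likelihood test across the 14003 genes, in which 0 genes (0%) reached an adjusted p under 0.05, and so none of the 10 enzymes did. Over all genes the lowest adjusted p was 0.141. At an unadjusted p under 0.05, 4 of the 10 enzymes were lower, namely UGT8, FA2H, ELOVL7 and GAL3ST1, against 7.73% of all genes tested. None was higher, against 9.23%. No overlap between groups was seen for 5 of the 10 enzymes, all lower in the FNI+I-125 group, against 12.3% of all genes lower and 14.8% higher. With DESeq2, 2 of the 10 enzymes were lower at an adjusted p under 0.05, UGT8 and FA2H, against 2.62% of the 13903 genes that it gave an adjusted p. With limma-voom, 0 genes passed the adjusted p, and 1 of the 10 enzymes was lower at the unadjusted p. Over all genes it gave 178 lower at the unadjusted p with a log2 fold change of at least 1.5 in size, against 306 with edgeR.

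Single libraries decided much of this. Without FNI replicate 3, 2 of the 10 enzymes, UGT8 and ELOVL7, were lower at an unadjusted p under 0.05, against 5.24% of all genes tested in the same way, and the median of the 10 log2 fold changes was -0.27. Enzymes already without overlap must stay so when a library is dropped, so their count of 5 says nothing about stability. Without that library, 15.8% of all genes were lower without overlap. The count of enzymes at the unadjusted p was 1 without FNI+I-125 replicate 1, 0 without FNI+I-125 replicate 3 and 7 without FNI replicate 2. It was 4 without FNI replicate 1 and 3 without FNI+I-125 replicate 2. Over all genes, 306 were lower in the full fit at the unadjusted p with a log2 fold change of at least 1.5 in size. In the same order of omitted libraries this was 122, 380, 413, 416 and 298. This count, with its fold criterion, did not always move as that of the enzymes did. Without FNI+I-125 replicate 3 it rose to 380, while 0 enzymes passed the unadjusted p. Shares of all genes at the unadjusted p alone are not given for these fits.

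**Figure D2:**
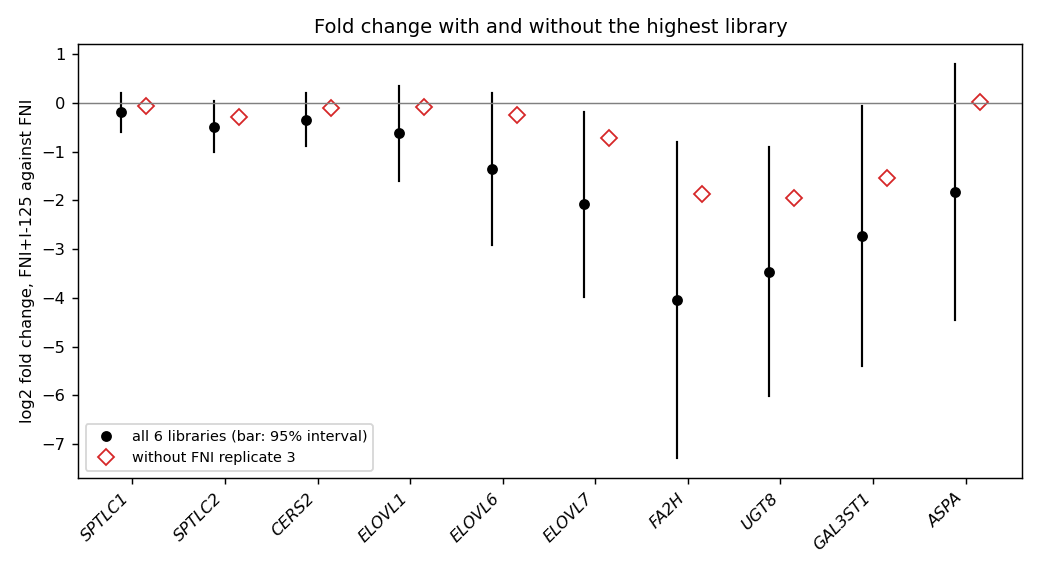
Log2 fold change of each enzyme in FNI+I-125 against FNI. Black points with 95% intervals come from all 6 libraries and open diamonds from the fit without FNI replicate 3. The diamonds of FA2H, UGT8 and GAL3ST1 stay between -1.94 and -1.54, while that of ASPA lies at 0.01.

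UGT8 transfers galactose to ceramide and so makes galactosylceramide, the most typical lipid of myelin. It received 1532, 678 and 7463 counts after FNI, compared to 134, 531 and 188 after FNI+I-125. This was 89.7, 42.7 and 441 CPM against 8.76, 32.3 and 11.0 CPM. All FNI+I-125 libraries lay below all FNI libraries, but FNI+I-125 replicate 2 came close to FNI replicate 2. UGT8 averaged 191 ± 218 CPM and 17.4 ± 13 CPM in these groups (SD, n = 3 each). This gave a log2 fold change of -3.46 (standard error 1.04, 95% interval -6.01 to -0.90), with an adjusted p of 0.280 in edgeR and 0.00463 in DESeq2. Over the 6 fits that each leave out 1 library it ran from -4.30 to -1.94, with the value nearest to 0 without FNI replicate 3.

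FA2H puts the 2-hydroxyl group on the fatty acids that end up in myelin galactolipids. It had 541, 215 and 4477 counts after FNI, and 63, 201 and 41 after FNI+I-125. On the CPM scale this was 31.7, 13.5 and 265 against 4.12, 12.2 and 2.41. FNI replicate 3 held 11.7 times the mean of the other FNI libraries, the widest gap among the 10 enzymes, and the groups were separated by a small step between the replicates numbered 2. Its log2 fold change was -4.04 (standard error 1.33, 95% interval -7.29 to -0.80), with an adjusted p of 0.280 in edgeR and 0.00593 in DESeq2. Without FNI replicate 3 it was -1.86 (unadjusted p = 0.0613 in edgeR's quasi-likelihood test), and the adjusted p in DESeq2 was 0.175. For UGT8, DESeq2 gave an adjusted p of 0.0669 without that library.

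GAL3ST1 adds sulfate to galactosylceramide to form sulfatide, which helps to order the junctions between glia and axon beside the node. It was the least abundant of the 10 by counts, with 62, 46 and 270 counts after FNI, compared to 7, 43 and 5 after FNI+I-125. The 95% Poisson intervals, which cover counting error only, were 2.81 to 14.4 for the 7 counts and 1.62 to 11.7 for the 5 counts. Both lie below the interval of 33.7 to 61.4 for the lowest FNI library, while that of FNI+I-125 replicate 2, 31.1 to 57.9, does not. In the fit GAL3ST1 had a log2 fold change of -2.73 (standard error 1.09, 95% interval -5.40 to -0.06, adjusted p = 0.290 in edgeR's quasi-likelihood test). It was -4.32 without FNI+I-125 replicate 2 and -1.54 without FNI replicate 3.

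For these 3 enzymes a two-sided exact permutation test on log2(CPM + 1) gave p = 0.1, the smallest p that 3 libraries against 3 allow. In whole nerve tissue, fewer myelinating cells and less RNA of these enzymes per cell cannot be told apart.

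The elongases lengthen fatty acids by stepwise addition and supply the long chains of myelin lipids. ELOVL7, which acts on long-chain acyl-CoAs, stood at 11.1, 7.87 and 55.6 CPM after FNI, compared to 5.88, 6.39 and 5.34 CPM after FNI+I-125. The FNI+I-125 libraries were tightly grouped below all FNI libraries. ELOVL7 had a log2 fold change of -2.08 (standard error 0.78, 95% interval -3.98 to -0.18, adjusted p = 0.282 in edgeR's quasi-likelihood test). Without FNI replicate 3 it was -0.71 (standard error 0.25), with an unadjusted p of 0.0360.

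ELOVL6 elongates saturated and monounsaturated chains of palmitate length, a step shared by myelinating glia and fat cells. It stood at 24.5, 24.7 and 112 CPM after FNI, compared to 22.3, 20.3 and 20.6 CPM after FNI+I-125. Outside FNI replicate 3 all 5 libraries thus lay between 20.3 and 24.7 CPM, and the groups were separated by a small step. For ELOVL6 the log2 fold change was -1.35 (standard error 0.64, 95% interval -2.91 to 0.21, adjusted p = 0.322 in edgeR's quasi-likelihood test), and -0.24 without FNI replicate 3.

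ELOVL1 makes the very long saturated and monounsaturated chains that CERS2 uses. Its levels of 61.8, 44.4 and 126 CPM after FNI overlapped with 47.8, 60.2 and 43.6 CPM after FNI+I-125 (exact permutation test, p = 0.4). ELOVL1 had a log2 fold change of -0.62 (standard error 0.40, 95% interval -1.59 to 0.36), or -0.09 without FNI replicate 3. Adipocyte markers shared the top library with the elongases. They were higher in FNI replicate 2 than in FNI replicate 1. There ELOVL1 and ELOVL7 were lower, and ELOVL6 was nearly equal, at 24.7 CPM in replicate 2 and 24.5 CPM in replicate 1. The 8 of 10 listed adipocyte genes that the files hold summed to 1407, 1939 and 3691 CPM after FNI, compared to 941, 981 and 1299 CPM after FNI+I-125, again with the top value in FNI replicate 3. Of these 8, ADRB3 stayed under 10 counts in every library. The part of fat tissue in the elongase values was not tested.

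SPTLC1 and SPTLC2 together form the core of serine palmitoyltransferase, the entry step that all cells use. SPTLC1 showed the smallest spread of the 10, with 52.2, 52.2 and 68.7 CPM after FNI and 44.8, 50.6 and 55.8 CPM after FNI+I-125. For SPTLC1 the fit gave -0.19 on the log2 scale (standard error 0.16), and the 95% interval of -0.59 to 0.20 leaves room for a modest difference in either direction. It was -0.07 without FNI replicate 3. SPTLC2 stood at 119, 101 and 161 CPM against 105, 85.9 and 81.1 CPM, and FNI+I-125 replicate 1 lay above FNI replicate 2. Its log2 fold change was -0.48 (standard error 0.21, 95% interval -0.998 to 0.03, adjusted p = 0.306 in edgeR's quasi-likelihood test), and -0.29 without FNI replicate 3.

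CERS2 is the ceramide synthase that prefers very-long-chain acyl-CoAs and is the main one in myelinating cells. It stood at 129, 117 and 196 CPM after FNI, compared to 110, 125 and 114 CPM after FNI+I-125, with overlap between groups (exact permutation test, p = 0.2). CERS2 had a log2 fold change of -0.34 (standard error 0.22), with a 95% interval of -0.88 to 0.19, and -0.10 without FNI replicate 3. The highest library held 1.78 times the lowest for CERS2 and 1.53 times for SPTLC1, compared to 110 times for FA2H and 50.4 times for UGT8.

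ASPA splits N-acetylaspartate into aspartate and acetate, and in the brain this acetate feeds myelin lipid synthesis. It stood at 6.33, 9.76 and 70.5 CPM after FNI, compared to 2.61, 13.8 and 8.04 CPM after FNI+I-125. FNI+I-125 replicate 2 lay above both FNI replicates 1 and 2, and the permutation test was far from its smallest p (exact, p = 0.5). The log2 fold change of -1.82 (standard error 1.07, 95% interval -4.45 to 0.80) became 0.01 without FNI replicate 3.

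**Figure D3:**
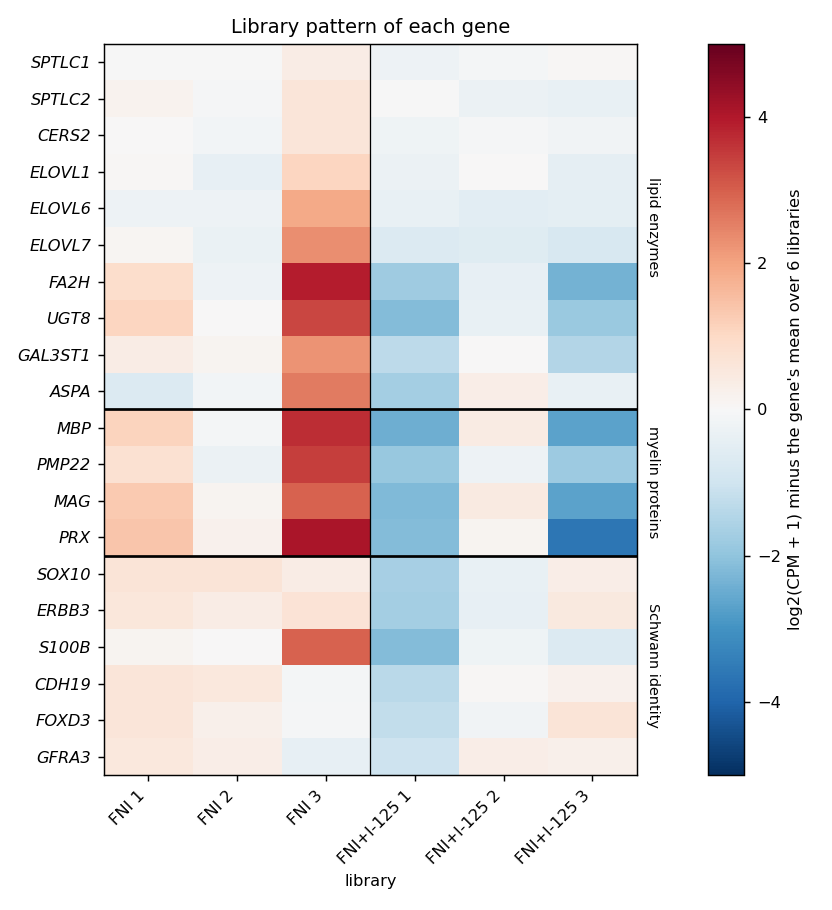
Log2(CPM + 1) of each gene minus its own mean over the 6 libraries, for the 10 lipid enzymes, 4 myelin protein genes and 6 genes of Schwann cell identity. FA2H and UGT8 have the colours of MBP, PMP22, MAG and PRX, red in FNI replicate 3 and blue in FNI+I-125 replicates 1 and 3. GAL3ST1 is paler in FNI replicate 3, at 2.25, where ELOVL7 has 2.34 and ASPA 2.6. SPTLC1, SPTLC2 and CERS2 stay pale throughout.

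The galactolipid enzymes were next read beside the myelin proteins. MBP, the myelin basic protein, stood at 342, 146 and 2049 CPM after FNI, compared to 28.0, 207 and 23.8 CPM after FNI+I-125. PMP22, a membrane protein of compact peripheral myelin, stood at 852, 412 and 5620 CPM against 136, 425 and 144 CPM. In both genes FNI replicate 3 was far above the rest, and FNI+I-125 replicate 2 was at or above FNI replicate 2. Among the Schwann identity genes, S100B shared this peak, at 161, 148 and 1137 CPM after FNI. ERBB3 was highest in FNI replicate 3 by a small step, at 224, 195 and 239 CPM. CDH19, FOXD3 and GFRA3, like SOX10, were instead lowest of the FNI group in that library, at 87.6, 5.6 and 38.8 CPM. SOX10, the transcription factor that marks the Schwann lineage, stood at 275, 276 and 229 CPM after FNI, compared to 54.4, 133 and 222 CPM after FNI+I-125.

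Each enzyme was therefore set against the mean log2(CPM + 1) of 4 myelin protein genes (MBP, PMP22, MAG and PRX) in the same library. That mean was 7.87, 6.72 and 10.3 after FNI and 4.56, 6.92 and 4.03 after FNI+I-125 (exact permutation test, p = 0.2). Set against it, the spread of the galactolipid enzymes over the 6 libraries shrank. For FA2H the range from lowest to highest library was 6.29 log2 units alone and 0.995 relative to the myelin proteins. For UGT8 it was 5.50 and 1.42, and for GAL3ST1 3.71 and 2.52. For CERS2 the range widened from 0.83 to 5.45 log2 units, and for SPTLC1 from 0.61 to 5.94. The reference itself ran from 4.03 to 10.3, so any gene with a nearly flat level must widen in this way.

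Relative to the myelin proteins, the groups differed by 0.08 log2 units for FA2H (exact permutation test, p = 0.9) and by 0.18 for UGT8 (exact permutation test, p = 0.8). The levels relative to the myelin proteins were -2.64 ± 0.36 and -2.55 ± 0.56 (SD, n = 3 each) for FA2H in the FNI and FNI+I-125 groups, and -1.37 ± 0.11 and -1.19 ± 0.71 for UGT8. These p-values do not show that the ratio was equal, since the SD within a group was as large as 0.71 log2 units. GAL3ST1 was 1.29 higher relative to the myelin proteins in the FNI+I-125 group (exact permutation test, p = 0.2), or 0.77 higher with 0.25 in place of 1 CPM added. ELOVL1 and ASPA were higher relative to the myelin proteins in every FNI+I-125 library than in any FNI library, by 2.63 and 1.94 log2 units. The exact permutation test gave p = 0.1 for each, or 0.25 after Benjamini-Hochberg adjustment over the 10 enzymes. The reference itself differed by -3.12 log2 units, which raises every relative value. Alone, ELOVL1 and ASPA had log2 fold changes of -0.62 and -1.82, so their higher ratios come from the lower reference. The number of such enzymes, 2 in the full data, became 8 when FNI replicate 2 or FNI+I-125 replicate 2 was left out. The share of all genes was not taken for these counts. All 10 enzymes had an adjusted p of at least 0.25 in this test.

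**Figure D4:**
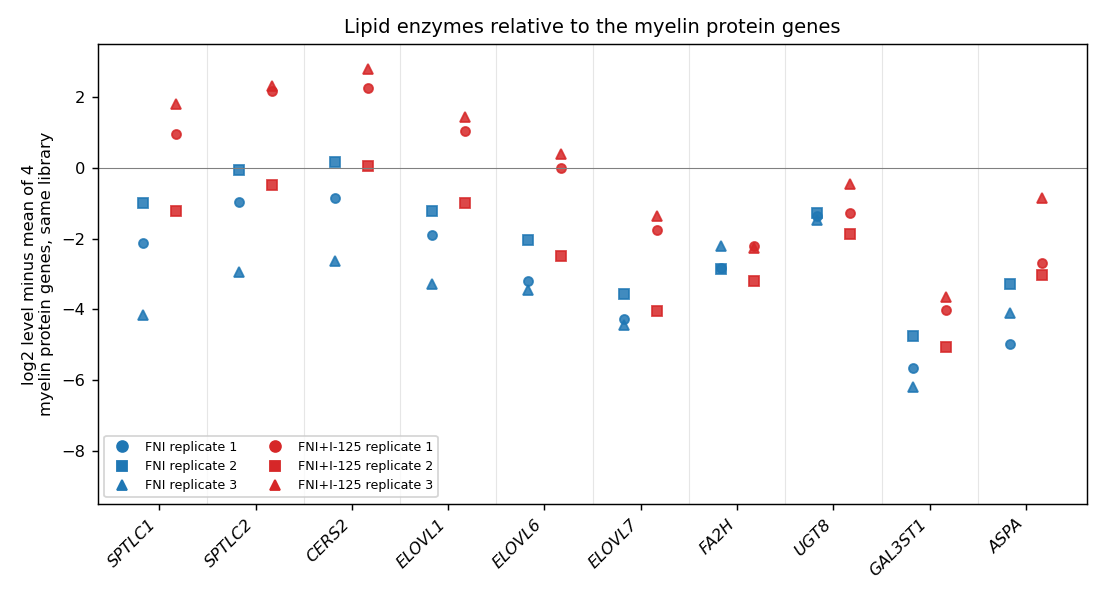
Log2(CPM + 1) of each enzyme minus the mean of the 4 myelin protein genes in the same library, in blue for the FNI group and in red for the FNI+I-125 group, with the marker shape for the replicate. FA2H and UGT8 have mixed red and blue points that span 0.995 and 1.42 log2 units. CERS2, SPTLC1 and SPTLC2 spread over 5.26 to 5.94 units, which mirrors the spread of the reference itself.

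With 6 Schwann identity genes (SOX10, ERBB3, S100B, CDH19, FOXD3 and GFRA3) as the reference, the picture turned. Their mean log2(CPM + 1) was 6.68, 6.51 and 6.74 after FNI and 4.64, 6.03 and 6.38 after FNI+I-125, so this reference was itself lower without overlap, by -0.96 log2 units (exact permutation test, p = 0.1), which shifts each relative value. The difference of FNI+I-125 from FNI was then -2.07 log2 units for FA2H and -1.97 for UGT8, with overlap between the groups (exact permutation tests, p = 0.3 and p = 0.2). These differences were -0.91 and -1.08 without FNI replicate 3. For CERS2 and SPTLC1 it was 0.66 and 0.78, or 0.84 and 0.86 without that library. The ranges of FA2H and UGT8 over the 6 libraries were 5.92 and 4.84 log2 units, close to those without a reference.

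Among the 9760 other genes with a mean of at least 10 CPM, those with the most similar library pattern were sought for each enzyme, by the root mean square difference of centred log2(CPM + 1) over the 6 libraries. The nearest to FA2H were NFASC, a cell adhesion molecule of nodes and paranodes, at 0.29 and PMP22 at 0.31, where FA2H itself varied by 2.05 around its mean. For UGT8 they were PMP22 at 0.22 and MT3, a metallothionein, at 0.23, with 1.85 for UGT8 itself. GAL3ST1 was nearest to PLEKHA4 and LOC108176233, and MFSD2A, a carrier of lysophospholipids, was among those nearest to ASPA. ELOVL6 was nearest to KCTD21 and to SAMD8, a relative of the sphingomyelin synthases, and ELOVL7 to GPC3 and SECISBP2L. The nearest to ELOVL1 were ARHGAP10 and ADO. Genes most like CERS2 (ZNF667 and PHKB), SPTLC1 (VTA1 and RAB18) and SPTLC2 (ACBD4) matched them at 0.0635 or less, but these enzymes varied by 0.32 at most. Among the 10 themselves, CERS2 and SPTLC1 were the most similar pair at 0.15, and FA2H and UGT8 differed by 0.37.

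The other genes of the pathway were described from 5 lists with 79 genes, of which 73 are in the files and 68 were tested. Of these 68, 8 were lower and 8 higher at an unadjusted p under 0.05, beside 7.73% and 9.23% of all genes tested. The same shares stand beside the counts of each list in the full data below. Without overlap, 11 were lower and 11 higher, beside 12.3% and 14.8% of all genes. By the sign of the log2 fold change alone, 40 were lower and 28 were higher. List counts with a library left out, given below, have no share of all genes beside them. The count over all genes, which also has a fold criterion, moved in those fits too. It ran from 122 to 416 for lower genes, where the full data gave 306. For higher genes it ran from 239 to 514, where the full data gave 388. Whether a changed count is particular to its list was not tested.

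**Figure D5:**
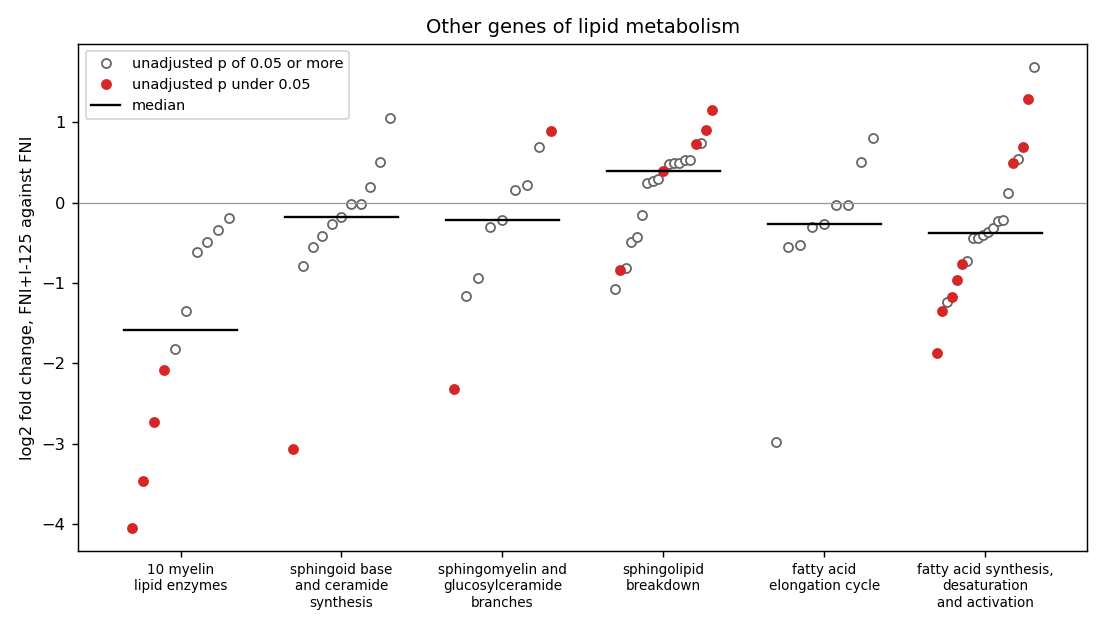
Log2 fold change of every tested gene in the set of 10 enzymes and in 5 lists of other lipid genes, with red for an unadjusted p under 0.05 and a black bar for the median. The median is -1.58 for the 10 enzymes, lies between -0.38 and -0.18 for 4 lists and is 0.39 for sphingolipid breakdown. Without FNI replicate 3 and over the same genes, it is -0.27 for the enzymes, 0.06 for ceramide synthesis, -0.0023 for the sphingomyelin and glucosylceramide branches, -0.09 for elongation, -0.33 for fatty acid synthesis and 0.38 for breakdown.

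In sphingoid base and ceramide synthesis, 1 of 11 genes tested was lower at the unadjusted p and 0 were higher, with a median log2 fold change of -0.18. With 1 library left out the lower count ran from 0 without FNI+I-125 replicate 1 to 3 without FNI+I-125 replicate 3. The lower gene in the full data was SPTLC3, the alternative partner of SPTLC1 in serine palmitoyltransferase. SPTLC3 stood at 38.1, 15.3 and 191 CPM after FNI, compared to 5.75, 11.5 and 11.9 CPM after FNI+I-125, without overlap. Its log2 fold change was -3.06 (0.97 standard error, with an adjusted p of 0.280 in edgeR's quasi-likelihood test), or -1.48 without FNI replicate 3. The subunits of this enzyme thus differed in pattern, since SPTLC1 and SPTLC2 stayed within 0.61 and 0.98 log2 units over all libraries. CERS4, a ceramide synthase for somewhat shorter chains, had a log2 fold change of -0.55 (standard error 0.24), and ORMDL3, an inhibitor of serine palmitoyltransferase, of -0.78 (standard error 0.38), or -0.41 without FNI replicate 3.

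In the sphingomyelin and glucosylceramide branches, which use the same ceramide, 1 of 9 genes was lower and 1 was higher at the unadjusted p. The lower count was 0 without FNI+I-125 replicate 1 or 3 and 3 without FNI replicate 1, and the higher count was 2 without FNI replicate 2 and 0 without FNI replicate 1 or FNI+I-125 replicate 1 or 2. B4GALNT1, which builds complex gangliosides, stood at 26.0, 28.0 and 136 CPM after FNI, compared to 13.9, 17.6 and 6.69 CPM after FNI+I-125. ST3GAL5, which makes the simple ganglioside GM3 at the branch point before it, had the opposite direction, with 24.7, 28.6 and 13.7 CPM against 50.3, 39.8 and 33.8 CPM. Their log2 fold changes were -2.31 (standard error 0.78) and 0.89 (standard error 0.31), and the groups overlapped for neither gene. They were -1.10 and 0.62 without FNI replicate 3. SGMS2, a sphingomyelin synthase, had -0.93 (standard error 0.39), and COL4A3BP, the ceramide carrier from the endoplasmic reticulum to the Golgi, had -0.31 (standard error 0.26). Without that library SGMS2 had -0.60 and COL4A3BP 0.01.

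In the full data, sphingolipid breakdown was the list with a positive median. Of its 19 genes tested, 4 were higher and 1 was lower at the unadjusted p, beside 9.23% and 7.73% of all genes tested, and the median log2 fold change was 0.39. GLB1, the lysosomal β-galactosidase, stood at 125, 125 and 112 CPM after FNI, compared to 163, 295 and 221 CPM after FNI+I-125 (log2 fold change 0.91, standard error 0.23). PSAP, the precursor of the saposins and the most abundant gene of the list by CPM, overlapped between the groups (log2 fold change 0.74, standard error 0.35). Also higher at the unadjusted p were SGPL1, which cleaves sphingosine 1-phosphate, and SMPD1, the acid sphingomyelinase, both named after their values were seen, with 1.15 (standard error 0.40) and 0.39 (standard error 0.13). Without FNI+I-125 replicate 2, 1 gene was higher and the median was 0.15, and without FNI replicate 1 or 2, 2 or 3 genes were lower.

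The macrophage list moved with these lysosomal genes. Of its 10 genes, 8 are in the files, and they summed to 753, 974 and 280 CPM after FNI, compared to 1383, 1683 and 1124 CPM after FNI+I-125. The part of macrophages in the lysosomal values was not tested. The enzymes that break down the 2 galactolipids themselves did not separate the groups. GALC, which removes galactose from galactosylceramide, stood at 13.4, 22.5 and 60.3 CPM against 11.5, 17.04 and 17.1 CPM, and ARSA, which removes the sulfate of sulfatide, at 76.7, 54.1 and 52.3 CPM against 57.0, 84.9 and 78.7 CPM. GALC and ARSA were picked with their values known.

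ACER2, a ceramidase of the Golgi, had the smallest p-value of all 78 lipid genes described here. It stood at 44.0, 41.9 and 46.6 CPM after FNI, compared to 21.8, 26.1 and 26.2 CPM after FNI+I-125, with little spread within either group and FNI replicate 3 close to the others. ACER2 had a log2 fold change of -0.84 (0.13 standard error, with an adjusted p of 0.280 in edgeR's quasi-likelihood test and 2.9e-05 in DESeq2). Over the fits that each leave out 1 library it stayed between -0.91 and -0.76.

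In the elongation cycle, 0 of 9 genes tested passed the unadjusted p with edgeR in either direction, and the median log2 fold change was -0.27. The lower count was 2 without FNI replicate 1 and 1 without FNI replicate 2. ELOVL2, an elongase of polyunsaturated chains, had the smallest p-value of the list, with 31.0 CPM in FNI replicate 3 and 0.91 to 2.02 CPM in the other 5 libraries. Its log2 fold change of -2.98 (standard error 1.32) became -0.14 without that library. HACD4, a dehydratase of the cycle, had 0.81 (standard error 0.38), TECR, its last reductase, had -0.52 (standard error 0.27), and ELOVL5, another elongase of polyunsaturated chains, had -0.31 (standard error 0.22), or -0.09 without FNI replicate 3.

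In fatty acid synthesis, desaturation and activation, 5 of 20 genes tested were lower and 3 were higher at the unadjusted p. FASN, SCD and SLC27A1 of this list were not found under these symbols, so its counts and median do not cover them. The shares of all genes tested were 7.73% and 9.23%, and the median of the list was -0.38. The lower count was 3 without FNI replicate 2 or FNI+I-125 replicate 1 or 3, and 2 without FNI+I-125 replicate 2. FADS2, a desaturase of polyunsaturated chains, stood at 190, 185 and 319 CPM after FNI, compared to 106, 119 and 130 CPM after FNI+I-125 (log2 fold change -0.97, standard error 0.25). ACSL5, which activates fatty acids with CoA, stood at 25.6, 21.4 and 24.3 CPM against 44.9, 38.1 and 31.8 CPM (log2 fold change 0.69, standard error 0.17). ME1, the malic enzyme that supplies NADPH, had a log2 fold change of 1.29 (standard error 0.34), and ACLY, which makes cytosolic acetyl-CoA, had -0.22 (standard error 0.11). The groups did not overlap for these 4 genes, and the adjusted p in edgeR's quasi-likelihood test was 0.280 for FADS2, ACSL5 and ME1. The adipocyte list was higher in all FNI libraries, and its part in these values was not tested.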

How the data were processed

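Total RNA of 6 facial nerves was selected for mRNA with oligo dT and sequenced on an Illumina HiSeq instrument. The values deposited by the authors are raw, unnormalized read counts per gene, in a separate file for each library. The submitters' processing notes name HISAT2 and the rabbit build OryCun2.0, while the counting program, the annotation and the strand setting are not given in the sources used here. RefSeq symbols of assembly mOryCun1.1 were assigned to 542 of 2992 LOC numbers. Coordinates are not given, because the builds differ. The 25 names turned into spreadsheet dates hold 0.188% of the counts and were kept.

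Counts were analysed with edgeR 4.0.16 (TMM, filterByExpr with a minimum count of 10, glmQLFit and glmQLFTest with defaults, two-sided, Benjamini-Hochberg adjustment over 14003 genes) in R 4.3.3. A DEG needed an adjusted p below 0.05 together with a log2 fold change of at least 1.5 in size. The 95% intervals use the standard error, taken as |log2 FC| over the square root of F, and the degrees of freedom of the fit. Alternatives were DESeq2 1.42.0, limma-voom (limma 3.58.1), legacy = FALSE, other scalings and filters, the omission of single libraries, and a block for the replicate number. DESeq2 without FNI replicate 3 was chosen after seeing the data. The statistics were also run on simulated counts with a common dispersion, a setting that does not mimic a single extreme library. The 10 enzymes and all lists were chosen with earlier results of these data known. Named genes are the 10 enzymes, the reference genes, and from each lipid list the 3 with the smallest p and the 1 with the highest mean CPM, plus the 2 nearest genes to each enzyme. Certain genes of the named set are left out here, and the planned myelin reference of 6 genes and the Schwann cell marker list were cut to the remaining genes after the first results were seen. Same-numbered libraries were not from the same rabbit.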

Additional observations from a re-analysis of the deposited data

How the results depend on the processing

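The log2 fold change of 9 of the 10 enzymes stayed negative in every fit that gave one (14 alternatives for GAL3ST1, which the filter of at least 10 counts in every library removed, and 15 for the others). ASPA turned to 0.0088 without FNI replicate 3 with edgeR and to 0.0094 with DESeq2, and with 1 library left out it ran from -2.46 to 0.0088. At the unadjusted p, 4 of the 10 enzymes were lower, 1 with limma-voom, 0 with the replicate block and 0 to 7 with 1 library left out. Shares of all genes at this p alone are not given for these alternatives, except without FNI replicate 3. At the adjusted p, DESeq2 gave 2, FA2H (-4.05) and UGT8 (-3.47). Pearson's r of the deviations of same-numbered libraries from their group means, taken across genes, was 0.05, -0.19 and -0.14, so the numbers were not taken to pair the rabbits, and the loss under the replicate block is not read as a weaker effect.

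Over all genes, 0 were DEGs with edgeR, whereas DESeq2 gave 175 lower and 289 higher, or 77 and 178 without FNI replicate 3. With 1 library left out in edgeR there were 0 to 2 lower and 0 to 38 higher. At an unadjusted p with the same fold, edgeR gave 306 lower and 388 higher, or 217 and 375 with the replicate block. DESeq2 gave 493 and 631, or 194 lower without FNI replicate 3. With limma-voom 178 were lower, and with at least 10 counts in every library 245 were higher. With 1 library left out, 122 to 416 were lower and 239 to 514 higher. The cause of these shifts was not tested.

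Relative to the myelin proteins, the Schwann identity reference turned FA2H (-2.07), UGT8 (-1.97), GAL3ST1 (-0.87), ELOVL7 (-0.45) and ASPA (-0.22) negative. Without FNI replicate 3 under this reference, ELOVL7 (0.32) and ASPA (0.74) were positive and GAL3ST1 was -0.25, so the turns of ELOVL7 and ASPA rest on that library. With 1 library left out, UGT8 ran from -0.19 to 0.52 and FA2H from -0.093 to 0.40, and both changed sign. The number of enzymes above every FNI library, 2 at first, was 1 with the Schwann identity reference and 8 without FNI replicate 2 or FNI+I-125 replicate 2. With 0.25 in place of 1 CPM added, the range of GAL3ST1 relative to the myelin proteins was 1.63 log2 units.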

Other observations

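A few lipid genes had too few counts for the test. CERS3, the ceramide synthase of skin, had 39, 1 and 0 counts after FNI, compared to 1, 0 and 94 after FNI+I-125, in replicate order. The libraries with 39 and 94 counts are those in which the epidermis and sebaceous gland markers summed to 657 and 1064 CPM. SPTSSB, a small subunit of serine palmitoyltransferase, had 4, 1 and 10 counts against 0, 6 and 0. FADS6, listed as a desaturase, had 58, 31 and 1 counts against 4, 0 and 1.

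The log2 ratio of UGT8 to FA2H, each as log2(CPM + 1), was 1.47, 1.59 and 0.74 after FNI, compared to 0.93, 1.33 and 1.82 after FNI+I-125. That of SPTLC2 to SPTLC1 was 1.17, 0.93 and 1.21 against 1.21, 0.75 and 0.53. These ratios carry no correction for gene length, so only their steps between libraries can be read. These pairs were picked with the single values known.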
